A study of Mus musculus with 22 samples.

Results

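The SLC25 mitochondrial carriers were followed in mouse kidney RNA-Seq. Members were all genes whose symbol is Slc25a followed by a number, which gave 46 of the 32858 genes in the count table. Of these, 42 had 10 or more counts in 5 or more of the 22 libraries and are described below. All 42 also passed the filter of the test across 17131 genes. The other 4, Slc25a2, Slc25a18, Slc25a31 and Slc25a41, stayed under that limit.

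The kidneys came from male C57Bl6/J mice aged 8 to 10 weeks with no genetic change, 1 library per mouse. There were 5 mice given vehicle, 6 given KW6002 alone, 5 given cisplatin alone and 6 given both. Cisplatin, a platinum drug that crosslinks DNA and injures the kidney tubule, was injected 6 times at 3 mg/kg, and these kidneys were taken 72 hours after the last injection. KW6002, also called istradefylline, blocks the adenosine receptor encoded by Adora2a, and mice received 3 mg/kg of it from day -5 to day 7. Libraries held 26471762 to 40510754 counts. Vehicle mice 1 to 3 and KW6002 mice 1 to 3 carry mouse numbers in the 300s, and all other mice carry numbers in the 500s, so every cisplatin-treated mouse is in the latter series.

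Nearly all SLC25 proteins sit in the inner mitochondrial membrane, where each exchanges or imports particular small molecules between cytosol and matrix. They pass ATP out and phosphate in, carry keto acids, amino acids, acylcarnitines, coenzymes and iron, and complete shuttles such as the malate-aspartate shuttle. Kidney tubule cells, above all those of the proximal tubule, are rich in mitochondria and burn fatty acids and glutamine, which draws on many of these carriers. The 42 genes are taken here by the substrate their proteins carry, and 8 with no assigned class are kept apart.

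The promoters of 4 genes are shown because these genes had the largest changes described below or stand for a class. Of the 42 genes, Slc25a24 and Slc25a25 rose most with cisplatin and Slc25a21 fell most. Slc25a13 encodes an arm of the malate-aspartate shuttle. Each line gives the 250 bases before a RefSeq start on build GRCm38.p6, 5′ to 3′ on the gene's strand, with capitals on any motif found. Motifs searched on both strands were CACGTG (E-box), CCAAT, TGACGTCA (cAMP response element), TGACNNNGC (antioxidant response element) and TCAAGGTCA (estrogen-related receptor site), and hits that share bases were each counted.
Slc25a24, chr3:109122899-109123148, plus strand: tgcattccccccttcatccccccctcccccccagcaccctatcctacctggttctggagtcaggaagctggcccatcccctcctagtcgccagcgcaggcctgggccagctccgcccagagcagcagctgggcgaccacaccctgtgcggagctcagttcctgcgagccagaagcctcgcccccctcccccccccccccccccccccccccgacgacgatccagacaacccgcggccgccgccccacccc
Slc25a25, first start, chr2:32451471-32451720, minus strand: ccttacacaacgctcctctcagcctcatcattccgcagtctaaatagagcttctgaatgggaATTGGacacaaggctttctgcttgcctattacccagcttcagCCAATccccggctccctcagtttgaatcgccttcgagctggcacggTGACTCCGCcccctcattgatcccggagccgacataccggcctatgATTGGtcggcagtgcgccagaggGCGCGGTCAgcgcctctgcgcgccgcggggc
Slc25a25, a downstream start, chr2:32424067-32424316, minus strand: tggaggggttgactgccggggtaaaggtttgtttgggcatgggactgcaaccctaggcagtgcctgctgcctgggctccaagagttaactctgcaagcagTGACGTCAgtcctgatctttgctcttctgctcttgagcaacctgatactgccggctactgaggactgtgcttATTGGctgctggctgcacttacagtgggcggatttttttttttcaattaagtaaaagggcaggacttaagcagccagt
Slc25a13, chr6:6217174-6217423, minus strand: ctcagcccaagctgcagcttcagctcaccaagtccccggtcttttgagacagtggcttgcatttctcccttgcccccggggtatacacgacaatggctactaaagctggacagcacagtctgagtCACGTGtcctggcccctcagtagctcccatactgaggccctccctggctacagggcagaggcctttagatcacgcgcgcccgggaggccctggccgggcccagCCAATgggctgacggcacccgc
Slc25a21, chr12:57197473-57197722, minus strand: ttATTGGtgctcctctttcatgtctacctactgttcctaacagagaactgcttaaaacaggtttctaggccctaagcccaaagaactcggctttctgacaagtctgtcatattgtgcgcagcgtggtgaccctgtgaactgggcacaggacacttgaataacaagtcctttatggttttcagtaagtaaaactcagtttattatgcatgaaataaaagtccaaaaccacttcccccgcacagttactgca

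Slc25a24 held none of the 5 motifs in this window, and over the full 300 bases, which include 50 after the start, it was 72.3% G and C. The first Slc25a25 start had 3 CCAAT motifs and 2 antioxidant response elements, while the downstream start, which was not in the GENCODE transcripts used, had 1 CCAAT motif and the cAMP response element, the latter 150 bases before it. Slc25a13 had an E-box at base -125, and Slc25a21 was 43.0% G and C over its full 300 bases. In all, 33 of the 42 genes matched 43 RefSeq promoters. An E-box was in 7 of the 43, against 7.15% of 32851 mouse promoters of the same length, and CCAAT was in 22 of the 43, against 37.4%. The antioxidant response element was in 12 of the 43, against 12.4%, the cAMP response element in 2, against 1.79%, and the estrogen-related receptor site in 0, against 0.423%. The 7 E-box promoters belonged to 6 genes, Slc25a1, Slc25a13, Slc25a14, Slc25a15, Slc25a33 and Slc25a36. The 22 with CCAAT belonged to 19 genes and the 12 with the antioxidant response element to 9. Median G and C was 59.0% in the 43 promoters and 52.7% in all 32851, so the 2 sets differ in base content. These matches describe letters in the window and were not tested as sites in use. Starts of 1 gene overlap in part, so promoters are not independent.

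Levels between genes were compared per kilobase of exon, as CPM (read counts relative to the TMM-scaled library size) divided by exon length. In vehicle kidney, the ADP/ATP carrier gene Slc25a5 (214 ± 10.4 CPM per kilobase, SD) and the glutathione carrier gene Slc25a39 (213 ± 9.38 CPM per kilobase, SD) stood highest and did not differ beyond their spread. A second ADP/ATP carrier gene, Slc25a4 (144 ± 8.23 CPM per kilobase, SD), the dicarboxylate carrier gene Slc25a10 (140.0 ± 12.0 CPM per kilobase, SD) and the phosphate carrier gene Slc25a3 (128 ± 6.93 CPM per kilobase, SD) followed. The SD range of Slc25a10 overlapped those of Slc25a4 and Slc25a3. Below them came the oxoglutarate carrier gene Slc25a11 (77.2 ± 4.96 CPM per kilobase, SD) and the citrate carrier gene Slc25a1 (61.7 ± 6.07 CPM per kilobase, SD). The lowest of the 42 were Slc25a47 (0.982 ± 0.167 CPM per kilobase, SD), Slc25a53 (0.511 ± 0.12 CPM per kilobase, SD) and Slc25a43 (0.301 ± 0.0728 CPM per kilobase, SD). Up to 33.8% of the 50-base windows of Slc25a5 transcripts also occur in transcripts of 9 other genes, so its level is uncertain.

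**Figure D1:**
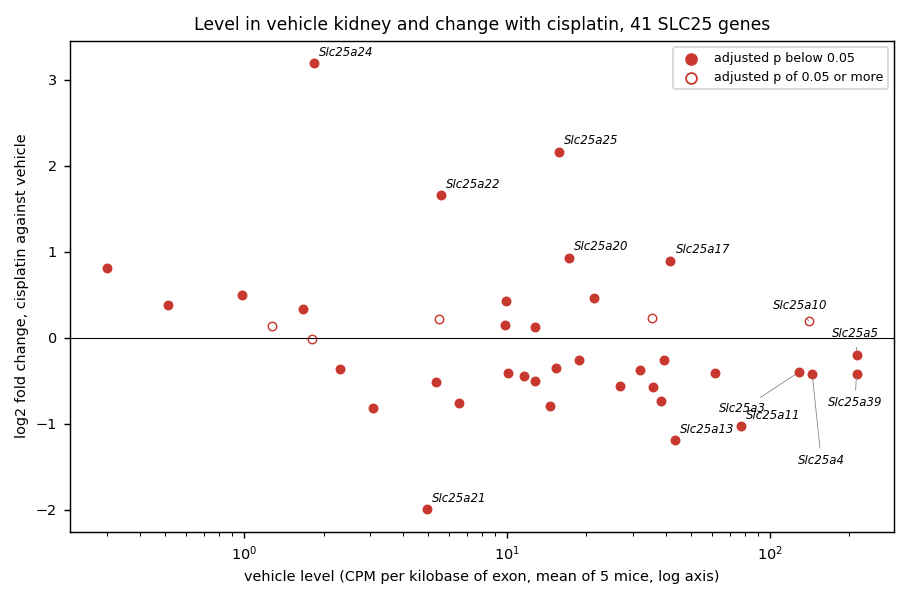
Each point is 1 of 41 SLC25 genes, placed by its mean level in the 5 vehicle kidneys (CPM per kilobase, log axis) and its log2 fold change with cisplatin against vehicle. The largest rise, Slc25a24 at 3.19, was in a gene of low level (1.83 CPM per kilobase), and the 5 genes highest per kilobase all lay between -0.43 and 0.19.

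The summed level of the 46 genes chosen by symbol was 5262 ± 168 CPM in vehicle (SD, n = 5), 5421 ± 74.4 in KW6002 (n = 6), 5011 ± 254 in cisplatin (n = 5) and 5025 ± 262 in the combined treatment (n = 6). The cisplatin mean over the vehicle mean was 0.952 on this scale but 1.11 when libraries were scaled by their total alone, so no direction is given for this total. Slc25a3, Slc25a39 and Slc25a10 together made up 30.5% (cisplatin) to 35.8% (KW6002) of it in the 4 groups.

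Cisplatin against vehicle asks how the drug altered carrier mRNA. At an adjusted p below 0.05 in edgeR's quasi-likelihood test, 13 of the 42 genes were higher, 24 were lower and 5 did not pass. Of all 17131 genes tested, 34.6% were higher and 35.9% were lower. The median log2 fold change of the 42 genes was -0.31, beside -0.01 for all genes tested. With libraries scaled by their total alone, the median of all genes shifted to 0.20 and that of the 42 genes to -0.09. The split of the 42 became 18 higher and 20 lower, with Slc25a5, Slc25a14, Slc25a44 and Slc25a51 no longer passing and the 5 that had not passed now higher. At the study's thresholds (an adjusted p under 0.01 with a log2 change larger than 1), 3 were higher and 4 lower, beside 12.1% of all genes in each direction.

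Kidney cell type markers moved in the same libraries. All 10 proximal tubule markers fell with cisplatin, and their summed level ranged from 27673 to 29047 CPM in vehicle, 26301 to 28231 in KW6002, 6783 to 10747 in cisplatin and 14134 to 18875 in the combined treatment. The 4 fibroblast markers rose, with sums of 136 to 321 CPM in vehicle, 153 to 349 in KW6002, 575 to 740 in cisplatin and 254 to 479 in the combined treatment. Adrenal markers summed to at most 2.74 CPM in the other groups but reached 83.4 CPM in 1 mouse given both drugs. Of the other marker lists, 4 of 4 thick ascending limb and 3 of 3 distal convoluted tubule markers also fell with cisplatin. Other lists were mixed. Of 4 collecting duct principal cell markers, 1 rose and 1 fell, with sums of 279 to 515 CPM in vehicle and 511 to 769 in cisplatin. Of 5 intercalated cell markers, 0 rose and 3 fell. Endothelial markers gave 1 rise and 1 fall of 4, macrophage markers 1 and 2 of 4, and T cell markers 1 and 2 of 3. In whole kidney, fewer cells of a type and less RNA per cell cannot be told apart, and the part of cell makeup in the carrier changes was not tested.

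Among the adenine nucleotide and phosphate carriers, 2 of 6 rose and 4 of 6 fell with cisplatin. Slc25a24 and Slc25a25 gave the largest rises of the 42 genes. They are 2 of the 3 calcium-regulated ATP-Mg/phosphate carriers, which set the size of the matrix adenine nucleotide pool. Slc25a24 measured 7.38, 7.42, 5.44, 5.67 and 5.500 CPM in the 5 vehicle mice and 68.5, 51.5, 59.6, 56.3 and 51.4 in the 5 cisplatin mice. Its lowest, median and highest values were 6.42, 7.17 and 7.78 CPM with KW6002 alone and 15.9, 24.5 and 35.5 with both drugs. Every cisplatin mouse was above every vehicle mouse (log2 fold change 3.19 ± 0.16 (SE), adjusted p = 3.34e-14), and the mice given both lay between these groups with no overlap (log2 fold change 1.98 ± 0.15, adjusted p = 1.93e-10 against vehicle).

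Slc25a25 measured 151, 156, 105, 80.2 and 124 CPM in vehicle and 489, 510.5, 535.5, 553 and 673 in cisplatin (log2 fold change 2.16 ± 0.17, adjusted p = 1.31e-10). Its lowest, median and highest values were 90.2, 112 and 141 CPM with KW6002 alone and 155, 171 and 251 with both drugs. Cisplatin alone again stood clear of vehicle, while the mice given both fell below all cisplatin mice and overlapped vehicle at the top of its range (log2 fold change 0.63 ± 0.16, adjusted p = 0.00185 against vehicle). Slc25a25 shares 379 exonic bases with Naif1 on the opposite strand, and the strand setting of the counting is not given in the sources used here. The third calcium-regulated gene, Slc25a23, fell instead (-0.56).

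The bulk carriers of this class fell by less. Slc25a3, which brings phosphate into the matrix, measured 739.7, 679.6, 684, 764 and 687 CPM in vehicle and 517, 570.4, 558, 547 and 493 in cisplatin (log2 fold change -0.40 ± 0.05, adjusted p = 3.91e-07), and the groups did not overlap. For the ADP/ATP exchanger gene Slc25a4 the values were 352, 349.5, 359, 327 and 313 CPM in vehicle and 242, 260.3, 246, 246 and 272 in cisplatin, again without overlap (log2 fold change -0.43 ± 0.05, adjusted p = 2.94e-07). Slc25a5 overlapped, with 356, 354, 376, 340.1 and 332 CPM in vehicle and 252, 323, 292, 309.7 and 351 in cisplatin (log2 fold change -0.20 ± 0.07, adjusted p = 0.0111), its log2 fold change was 0.0123 with libraries scaled by their total alone, and among mice numbered in the 500s only it was -0.14 (adjusted p = 0.215).

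**Figure D2:**
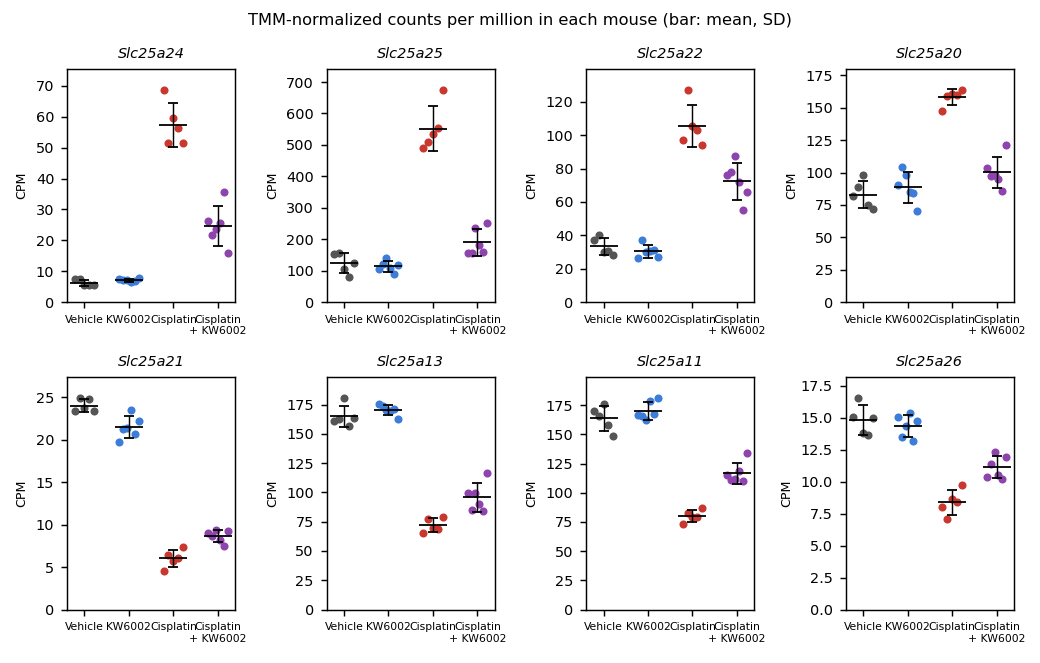
Each point is the CPM of 1 mouse in 1 of the 4 groups for 8 SLC25 genes, with the group mean and SD as bars and every axis starting at 0. In the upper row the 5 cisplatin mice lie above all vehicle mice (Slc25a24 at 51.4 CPM or more, against 7.42 or less), and in the lower row they lie below them (Slc25a21 at 7.39 CPM or less, against 23.3 or more).

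Of the carriers of dicarboxylates, tricarboxylates and keto acids, 3 of 4 fell with cisplatin and none rose. Slc25a21, which carries oxoadipate from lysine and tryptophan breakdown, showed the largest fall of the 42 genes. It measured 23.3, 24.9, 23.8, 24.8 and 23.4 CPM in vehicle and 4.53, 6.40, 5.73, 6.05 and 7.39 in cisplatin (log2 fold change -1.997 ± 0.09, adjusted p = 1.16e-14). The lowest, median and highest values were 19.8, 21.4 and 23.6 CPM with KW6002 alone and 7.43, 8.87 and 9.33 with both drugs. Cisplatin mice lay far below vehicle, and those given both lay just above cisplatin and still below all vehicle mice.

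Slc25a11, the oxoglutarate carrier of the malate-aspartate shuttle, measured 169.7, 166, 176, 158 and 149 CPM in vehicle and 73.6, 82.6, 79.1, 79.1 and 86.7 in cisplatin (log2 fold change -1.03 ± 0.06, adjusted p = 5.26e-13). Its range with both drugs, 109.8, 113 and 134 CPM (lowest, median, highest), lay between those groups without touching either, and with KW6002 alone it was 162, 167 and 181. The citrate carrier gene Slc25a1 fell as well (log2 fold change -0.41 ± 0.09, adjusted p = 0.000181). Slc25a10, the dicarboxylate carrier, was 502, 541, 489, 441 and 446 CPM in vehicle and 498, 554, 531.5, 545 and 631 in cisplatin, which overlapped (log2 fold change 0.19 ± 0.11, adjusted p = 0.138).

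Amino acid carriers split into 2 higher and 5 lower of 7. Slc25a13, which like Slc25a12 exchanges aspartate for glutamate in the malate-aspartate shuttle and in urea synthesis, measured 161, 162, 181, 157 and 163 CPM in vehicle and 65.6, 76.9, 69.4, 69.1 and 79.2 in cisplatin (log2 fold change -1.19 ± 0.07, adjusted p = 1.46e-12). With KW6002 alone its lowest, median and highest values were 163, 171 and 175 CPM, and with both drugs 84.3, 94.6 and 116. No cisplatin-treated mouse, with or without KW6002, reached the vehicle range. Slc25a12 fell by less (-0.50), as did the ornithine carrier gene Slc25a15 (-0.74), the glycine carrier gene Slc25a38 (-0.41) and Slc25a44 (-0.26), tied to branched-chain amino acids.

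Slc25a22, a glutamate carrier, went the other way, with 37.3, 40.5, 30.2, 30.6 and 28.3 CPM in vehicle and 97.4, 127, 106, 103 and 94.4 in cisplatin (log2 fold change 1.66 ± 0.12, adjusted p = 2.36e-11). KW6002 alone gave 26.4, 30.4 and 37.0 CPM (lowest, median, highest), and both drugs gave 55.2, 74.0 and 87.6, above all vehicle mice and below all cisplatin mice. Slc25a29, a carrier of basic amino acids, also rose (log2 fold change 0.33 ± 0.11, adjusted p = 0.00952), and among mice numbered in the 500s only its value was 0.29 (adjusted p = 0.0780).

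The carnitine-acylcarnitine carrier gene Slc25a20, which lets fatty acids enter for oxidation, rose with cisplatin from 82.0, 88.8, 97.9, 75.0 and 71.6 CPM in vehicle to 148, 159, 161, 160.0 and 163 (log2 fold change 0.93 ± 0.10, adjusted p = 1.38e-08). No cisplatin mouse was within the vehicle range. Its lowest, median and highest values were 70.1, 87.7 and 104 CPM with KW6002 alone and 85.4, 98.0 and 121 with both drugs, which overlapped vehicle. Slc25a20 was still higher than vehicle there in edgeR's quasi-likelihood test (log2 fold change 0.27 ± 0.09, adjusted p = 0.0157). That call was lost without vehicle mouse 5 or combined treatment mouse 6, at 0.22 and 0.21. It was also lost with the mean of fat marker genes as a covariate (0.25, adjusted p = 0.110).

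Carriers of cofactors, vitamins and pyrimidine nucleotides gave 1 rise and 7 falls among 9. Slc25a26, the carrier of S-adenosylmethionine, measured 15.1, 16.6, 13.8, 13.7 and 15.0 CPM in vehicle and 8.02, 7.11, 8.63, 8.400 and 9.77 in cisplatin (log2 fold change -0.82 ± 0.08, adjusted p = 3.99e-09), with 13.2, 14.5 and 15.4 CPM (lowest, median, highest) under KW6002 alone and 10.2, 11.0 and 12.3 under both. The mice given both drugs lay above cisplatin and below vehicle with no overlap.

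Smaller falls in this class were seen in the coenzyme A carrier gene Slc25a42 (-0.57), the folate carrier gene Slc25a32 (-0.52), Slc25a16 (-0.38), the pyrimidine nucleotide carrier gene Slc25a36 (-0.36) and the NAD carrier gene Slc25a51 (-0.26), all as log2 fold changes. The Slc25a42 value was -0.18 (adjusted p = 0.241) among mice numbered in the 500s only and -0.23 (adjusted p = 0.0898) with label series as a covariate. The rise was in Slc25a17, a peroxisomal carrier of coenzyme A, FAD and NAD, with 127, 114, 132, 112 and 109 CPM in vehicle and 219, 231, 217, 219 and 219 in cisplatin (log2 fold change 0.90 ± 0.07, adjusted p = 1.41e-10). It ran at 112, 136 and 149 CPM (lowest, median, highest) with KW6002 alone and 153, 168 and 173 with both, the latter between the vehicle and cisplatin ranges.

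Iron and glutathione carriers differed among themselves. Slc25a39, which carries glutathione into mitochondria, fell from 572, 558, 611, 576 and 617 CPM in vehicle to 373, 462, 438, 451 and 468 in cisplatin (log2 fold change -0.42 ± 0.06, adjusted p = 7.66e-07), while its relative Slc25a40 had a log2 fold change of -0.02 and did not pass. Of the mitoferrins, which import iron, Slc25a37 rose (0.42) and Slc25a28 rose by 0.15 in log2. That call was lost without cisplatin mouse 3 or 4 or vehicle mouse 1, 2 or 3, at log2 fold changes of 0.12 to 0.14. The Slc25a28 value was 0.054 (adjusted p = 0.393) with label series as a covariate and 0.045 (adjusted p = 0.601) among mice numbered in the 500s only. Slc25a37 also serves heme synthesis in red cell precursors. The 6 red cell markers tested all fell. All 7 listed red cell markers summed to 138 to 461 CPM in vehicle, 128 to 421 in KW6002, 4.69 to 16.6 in cisplatin and 23.9 to 43.7 with both drugs. Their part in the Slc25a37 value was not tested.

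Of the 3 uncoupling protein relatives, Slc25a14 fell (-0.36), and Slc25a27 (0.14) and Slc25a30 (0.23) did not pass. With label series as a covariate, Slc25a30 did pass, at 0.52 (adjusted p = 0.000178) with cisplatin and 0.40 (adjusted p = 0.00235) with both drugs, each against vehicle, and among mice numbered in the 500s only the cisplatin value was 0.41 (adjusted p = 0.00995). Among the 8 genes of no class, 5 rose and 3 fell. Slc25a45 (-0.80), Slc25a35 (-0.76) and the choline transporter gene Slc25a48 (-0.45) fell. Slc25a43 (0.81), Slc25a47 (0.49), Slc25a34 (0.46), Slc25a53 (0.38) and Slc25a46 (0.12), the last an outer membrane protein of mitochondrial dynamics, rose. The Slc25a47 value was 0.30 (adjusted p = 0.0825) among mice numbered in the 500s only, and the Slc25a46 value was 0.09 (adjusted p = 0.0951) with label series as a covariate. The Slc25a53 call was lost without cisplatin mouse 2 or 5 or vehicle mouse 1 or 5, at 0.24 to 0.35. Slc25a43 lay near 0.535 CPM in vehicle, and Slc25a35 shares 1151 of its 3677 exonic bases with Rangrf on the opposite strand.

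**Figure D3:**
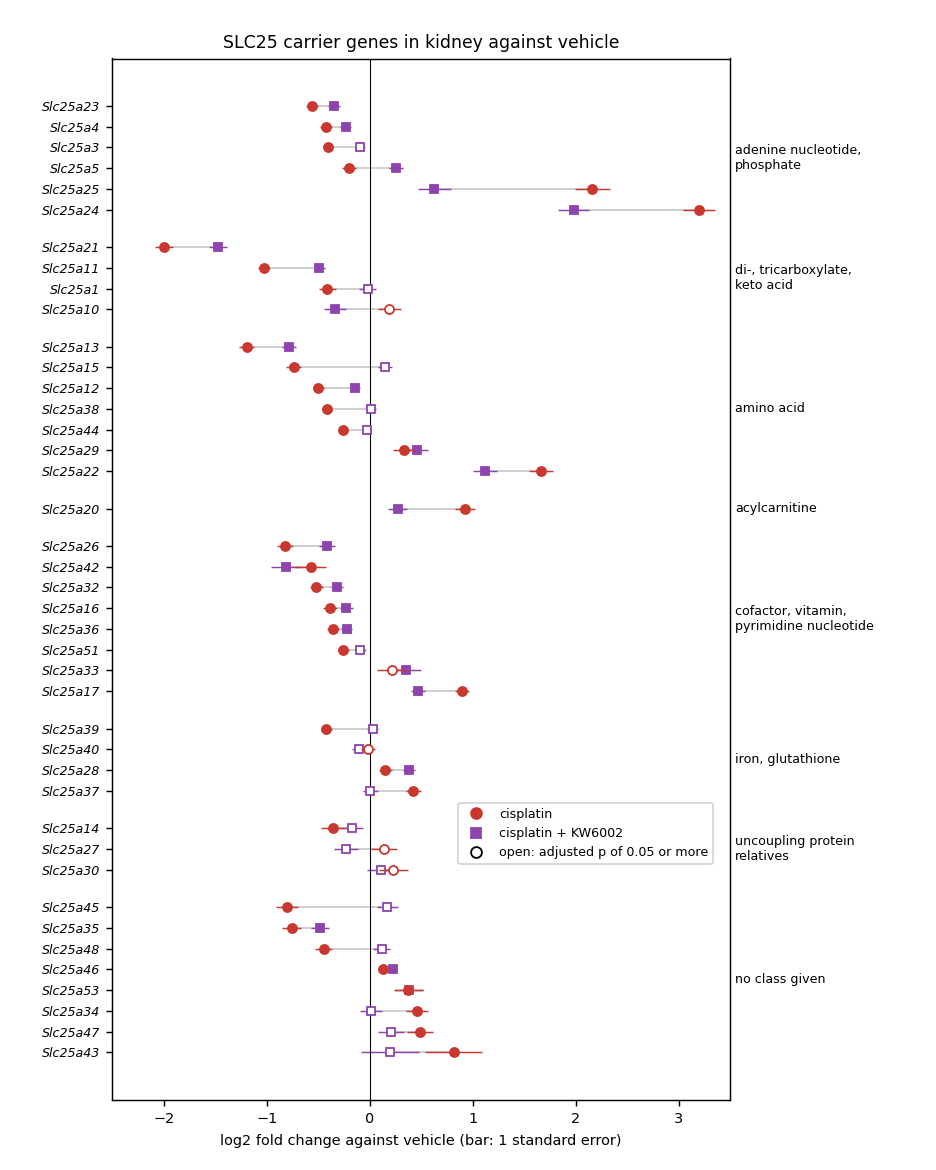
Log2 fold change against vehicle, with 1 standard error, of 41 SLC25 genes by substrate class, for cisplatin (red circles) and cisplatin plus KW6002 (purple squares), where open symbols have an adjusted p of 0.05 or more. Cisplatin values run from -1.997 (Slc25a21) to 3.19 (Slc25a24) and those of the combined treatment from -1.47 to 1.98, and both sets share the 5 vehicle mice.

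Cisplatin plus KW6002 against cisplatin asks how carrier mRNA differed when the receptor blocker was added. It shares the cisplatin mice with the comparison above, so values are given side by side only. Of the 42 genes, 24 were higher, 11 were lower and 7 did not pass, while 28.6% of all genes tested were higher and 27.2% lower. The median log2 fold change was 0.17, beside 0.01 for all genes. At the study's thresholds 0 were higher and 2 lower, beside 4.65% and 5.66% of all genes. Proximal tubule markers were higher in 9 of 10, and the 5 fat markers were all lower, with sums of 336.7 to 650.2 CPM in cisplatin and 37.9 to 212 with both drugs (144 to 1055 in vehicle, 59.3 to 409 in KW6002). With the mean of the fat markers as a covariate, an alternative chosen after seeing the data, 20 carriers were higher and 10 lower.

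The 3 largest rises were in Slc25a45, Slc25a15 and Slc25a48. Slc25a45 measured 19.2, 21.02, 21.4, 23.1 and 30.2 CPM in the cisplatin mice and 38.3, 45.2 and 49.1 (lowest, median, highest) in those given both (log2 fold change 0.97 ± 0.10, adjusted p = 5e-08). In vehicle it was 42.3, 36.6, 42.01, 38.5 and 40.6 CPM, and with KW6002 alone 30.8, 39.1 and 43.4. All 6 mice given both stood above all cisplatin mice and overlapped vehicle.

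Slc25a15, which carries ornithine for urea and arginine metabolism, measured 115, 126, 123, 129 and 153 CPM in cisplatin and 221, 231 and 283 with both drugs (log2 fold change 0.89 ± 0.07, adjusted p = 4.54e-10). Vehicle mice had 207, 227, 207, 219.9 and 218 CPM, and KW6002 mice 196, 201 and 222. Slc25a48 measured 26.4, 34.8, 29.0, 26.2 and 26.8 CPM in cisplatin and 36.7, 42.2 and 50.3 with both (log2 fold change 0.56 ± 0.08, adjusted p = 2.9e-06), with 38.5, 35.0, 43.6, 37.6 and 40.4 in vehicle and 37.0, 37.8 and 39.3 under KW6002 alone. For both genes the combined group lay above cisplatin and overlapped vehicle.

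Slc25a25 (log2 fold change -1.54 ± 0.16, adjusted p = 3.39e-08), Slc25a24 (log2 fold change -1.21 ± 0.13, adjusted p = 8.01e-08) and Slc25a20 (log2 fold change -0.66 ± 0.09, adjusted p = 2.58e-06) showed the 3 largest falls, each with no overlap between the groups. With the fat marker covariate these log2 fold changes were -1.40, -1.11 and -0.68. Slc25a22 (-0.54) and Slc25a17 (-0.42) were lower as well. Among genes low in cisplatin, Slc25a11 (0.54), Slc25a21 (0.52), Slc25a13 (0.41) and Slc25a26 (0.41) were higher with both drugs.

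The genes highest per kilobase moved apart. Slc25a5 ran at 375, 422 and 447 CPM (lowest, median, highest) with both drugs, above all cisplatin mice (log2 fold change 0.46 ± 0.07, adjusted p = 3.68e-06), and 336.5, 355 and 373 with KW6002 alone. Slc25a39 ran at 558, 596 and 626 CPM with both (log2 fold change 0.45 ± 0.05, adjusted p = 4.31e-07), and Slc25a3 at 622, 660.4 and 711 CPM with both (log2 fold change 0.31 ± 0.05, adjusted p = 1.89e-05) and 748, 758 and 799.5 with KW6002 alone. Each of the 3 lay above the cisplatin range.

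Slc25a4 rose by less, from the cisplatin values above to 269, 286 and 324 CPM with overlap (log2 fold change 0.19 ± 0.05, adjusted p = 0.00316), and was 291, 318 and 329 CPM with KW6002 alone. Slc25a10, the carrier of malate and succinate, was lower instead, at 318, 344 and 544 CPM with both drugs (log2 fold change -0.52 ± 0.11, adjusted p = 0.000267) and 476, 512 and 554 with KW6002 alone. In the combined group 5 of 6 mice, at 318 to 430.1 CPM, lay below all vehicle and cisplatin mice, and the one at 544 CPM did not. With the fat marker covariate its value was -0.44 (adjusted p = 0.0145).

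**Figure D4:**
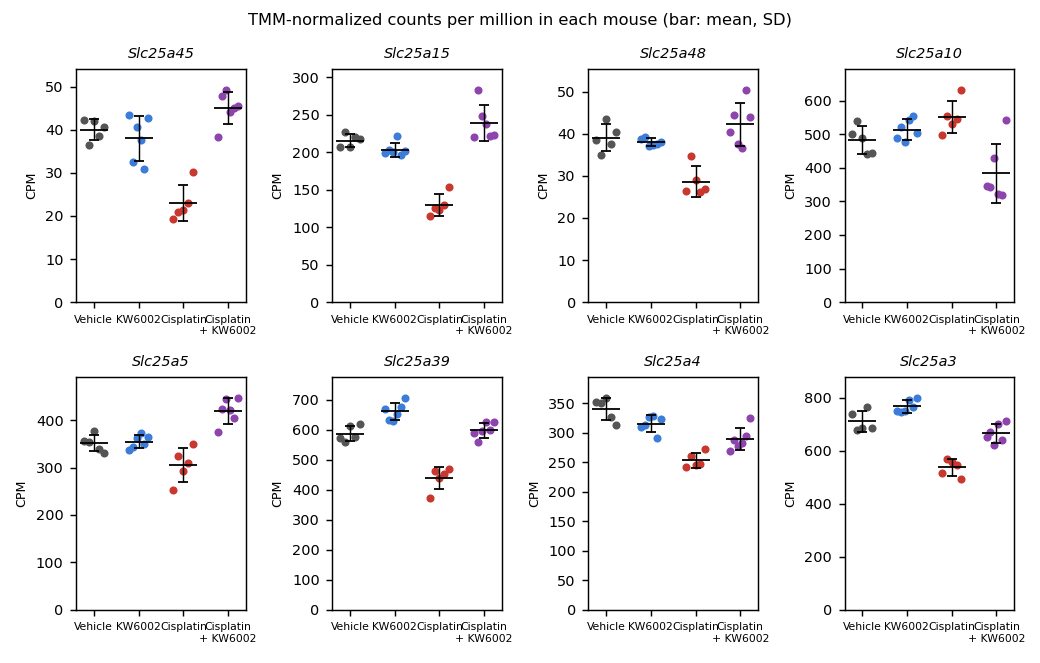
Each point is the CPM of 1 mouse in 1 of the 4 groups for 8 SLC25 genes, with group mean and SD as bars and every axis starting at 0. For Slc25a45, Slc25a15 and Slc25a48 the 6 mice given both drugs lie above the 5 cisplatin mice and among or above vehicle, while for Slc25a10 they spread from 318 to 544 CPM.

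By class, the combined treatment against cisplatin gave 4 higher and 2 lower of 6 adenine nucleotide and phosphate carriers, 3 higher and 1 lower of 4 keto acid and related carriers, and 5 higher and 1 lower of 7 amino acid carriers. Cofactor, vitamin and pyrimidine nucleotide carriers gave 6 higher and 1 lower of 9, and iron and glutathione carriers 2 higher and 1 lower of 4. None of the 3 uncoupling protein relatives was higher and Slc25a27 was lower (-0.37). Of the 8 without a class, 4 were higher and 3 lower. Slc25a40, Slc25a29, Slc25a42, Slc25a33, Slc25a14, Slc25a30 and Slc25a53 did not pass, with log2 fold changes between -0.24 and 0.19. With label series as a covariate Slc25a42 did pass at the same value (-0.24, adjusted p = 0.0426). The calls of 5 genes were lost in many of the 11 fits that left out 1 mouse. Slc25a36 (0.14) was lost in 10, all but the one without cisplatin mouse 2, at 0.12 to 0.14. Slc25a47 (-0.29) was lost in 8, kept without cisplatin mouse 1 or combined treatment mouse 2 or 4, at -0.30 to -0.22. Slc25a43 (-0.61) was lost in 7, kept without cisplatin mouse 3 or combined treatment mouse 2, 4 or 5, at -0.63 to -0.46. Slc25a46 (0.10, adjusted p = 0.0358) was lost in 7, without cisplatin mouse 4 or 5 or combined treatment mouse 1, 2, 4, 5 or 6, at 0.09 to 0.10. Slc25a16 (0.16) was lost in 6, without cisplatin mouse 1, 3 or 4 or combined treatment mouse 1, 3 or 6, at 0.11 to 0.16.

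KW6002 against vehicle asks what the blocker did by itself. In edgeR's quasi-likelihood test, 0 of the 42 genes passed in either direction, and the same was so in DESeq2. Across all genes tested, 0.0175% were higher and 0% lower. At an unadjusted p below 0.05 there were 5 of the 42, beside 1930 of 17131 genes. Log2 fold changes of the carriers ran from -0.20 to 0.29.

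The smallest p-values were in Slc25a39, Slc25a46 and Slc25a17. Slc25a39 ran at 629, 660.3 and 705 CPM (lowest, median, highest) in the KW6002 mice, above the vehicle range of 558 to 617 (log2 fold change 0.17 ± 0.05, adjusted p = 0.254). Slc25a46 measured 66.1, 75.1, 66.1, 67.7 and 69.2 CPM in vehicle and 70.6, 73.2 and 79.2 with KW6002, which overlapped (log2 fold change 0.10 ± 0.04, adjusted p = 0.334). In cisplatin Slc25a46 was 75.7, 77.1, 76.3, 74.2 and 71.8 CPM and with both drugs 76.1, 81.5 and 82.4, and the rise with cisplatin passed although the groups overlapped (log2 fold change 0.12 ± 0.04, adjusted p = 0.0126), but was lost with label series as a covariate, as given above. Slc25a17 overlapped too (log2 fold change 0.17 ± 0.07, adjusted p = 0.348).

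The combined treatment against vehicle, which shares mice with each comparison above, shows how far carriers stood from vehicle with both drugs. Of the 42 genes, 11 were higher, 14 were lower and 17 did not pass, beside 29.8% higher and 29.9% lower among all genes. With libraries scaled by their total alone, the split was 18 higher and 9 lower. The median was then 0.16 for all genes and 0.15 for the 42. With the fat marker covariate 7 were higher and 13 lower. Among low log2 fold changes were those of Slc25a21 (-1.47), Slc25a42 (-0.81) and Slc25a13 (-0.78), and the highest in Slc25a24 (1.98), Slc25a22 (1.12) and Slc25a25 (0.63). For Slc25a42 the 2 groups overlapped, and every mouse given both drugs is numbered in the 500s. Among vehicle mice the mean log2 level of Slc25a42 was 0.62 higher in the 300s than in the 500s, the highest such difference of the 42 genes. Slc25a5, lower with cisplatin alone, was higher here (log2 fold change 0.25 ± 0.07, adjusted p = 0.00195). For Slc25a15, Slc25a45, Slc25a48, Slc25a39 and Slc25a3 the values were 0.15, 0.17, 0.11, 0.03 and -0.10, and none passed, though the first 4 did with libraries scaled by their total alone. Slc25a15 also passed without combined treatment mouse 1, 5 or 6, at 0.17.

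The KW6002 effect with cisplatin minus that without, tested as an interaction term, was higher in 20, lower in 8 and did not pass in 14 of the 42 genes, beside 22.8% and 19.9% of all genes. Its extremes were Slc25a45 (log2 fold change 1.04 ± 0.14, adjusted p = 4.69e-06) and Slc25a25 (log2 fold change -1.42 ± 0.22, adjusted p = 2.64e-05). With mice numbered in the 500s only, 13 were higher and 9 lower.

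Genes that act beside the carriers were read from 4 short lists. The 5 outer membrane channel and pyruvate carrier genes (Vdac1 to Vdac3, Mpc1 and Mpc2) all fell with cisplatin, from -0.15 (Vdac3) to -0.95 (Mpc2) in log2, and 3 of 5 were higher with both drugs than with cisplatin. Of 10 genes of the import route for carriers, 6 fell with cisplatin and none rose, the lowest being Timm9 (-0.70). Of 11 enzymes that share substrates with the carriers, 3 rose and 6 fell. Beside these counts, 34.6% of all genes tested were higher and 35.9% lower with cisplatin. With both drugs against cisplatin, 28.6% of all genes were higher. Glud1, which turns glutamate into oxoglutarate, rose by 1.21 and cytosolic malate dehydrogenase Mdh1 fell by 1.47 in log2.

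Of the 5 carrier relatives named otherwise, Ucp2 rose with cisplatin (log2 fold change 2.34, mean 113 CPM in vehicle and 570.4 in cisplatin) and was lower with both drugs than with cisplatin (-1.91), Mtch1 and Mtch2 fell (-0.28 and -0.53), Ucp1 fell (-1.94) and Ucp3 did not pass. Ucp1, the uncoupler of brown fat, averaged 38.7 CPM in vehicle and 1.28 with both drugs, beside the fat marker sums given above.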

How the data were processed

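Poly(A) RNA from 22 mouse kidneys was sequenced with a stranded kit. The authors aligned reads to mm10 with STAR and made gene counts with HTSeq (version 0.6.1p1), per the labels, and the deposited values used here are those whole-number counts of reads per gene. Ensembl releases 90 and 102 are both named, and the strand setting of the counting is not given in the sources used here. A further 66 columns that no label ties to a sample were not used. Genes without a symbol held 0.00459% of counts.

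Groups came from the labels. Counts were fitted with edgeR 4.0.16 (R 4.3.3) by the quasi-likelihood test over all 4 groups, with TMM factors, filtering near 0.306 CPM, and Benjamini-Hochberg adjustment over 17131 genes. Each SE of a log2 fold change was the size of that change divided by the square root of the test's F statistic. The spread in that fit was estimated from the mice of all 4 groups together. DESeq2 1.42.0, other scalings, no filter, 2-group fits, a replicate block, label series, single series, a fat marker covariate and fits without each mouse were alternatives. The test was checked on simulated counts with the same spread for all genes, few changed genes and no label series. These data differ from that setting, so the check does not cover those features. Mice in a group differed by more than counting noise. Levels per kilobase used GENCODE exons, and shared windows its transcripts. Members, classes and lists were chosen with earlier results of these data known. Mouse values are given for the 5 largest rises and falls with cisplatin, the 3 largest each way with KW6002 added, the 3 smallest p with KW6002 alone and the 5 genes highest per kilobase. A gene that is counted is not reported here by value.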

Additional observations from a re-analysis of the deposited data

Results flagged for a closer look

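The KW6002 effect in cisplatin-treated mice differed from that in mice without cisplatin, by the interaction term in edgeR's quasi-likelihood test, in 28 of the 42 SLC25 genes, of which 27 are given here. By the same term 47.6% of the 42 genes were higher and 19% lower, beside 22.8% and 19.9% of all genes tested. The share of negative members was thus near that of all genes. As log2 differences, 8 were negative, in Slc25a25 (-1.42), Slc25a24 (-1.39), Slc25a20 (-0.75), Slc25a10 (-0.61), Slc25a17 (-0.59), Slc25a34 (-0.49), Slc25a37 (-0.45) and Slc25a22 (-0.41). The positive ones of highest value, all 0.40 or more, were in Slc25a45 (1.04), Slc25a15 (0.97), Slc25a21 (0.68), Slc25a48 (0.60), Slc25a1 (0.54), Slc25a11 (0.48), Slc25a26 (0.45) and Slc25a5 (0.44). Lower positive values were found in Slc25a38 (0.38), Slc25a13 (0.36), Slc25a12 (0.30), Slc25a44 (0.30), Slc25a4 (0.30), Slc25a39 (0.28), Slc25a32 (0.24), Slc25a36 (0.24), Slc25a28 (0.22), Slc25a51 (0.20) and Slc25a3 (0.20). In the 22 fits that left out 1 mouse, the call was lost 12 times for Slc25a22 (-0.42 to -0.34), 10 for Slc25a28 (0.19 to 0.21), 6 for Slc25a32 (0.19 to 0.23) and 2 each for Slc25a3 (0.17) and Slc25a51 (0.16 to 0.17). All mice given cisplatin are numbered in the 500s, and with that series alone the test rests on 2 vehicle and 3 KW6002 mice. In that fit the call was lost for 8 genes, Slc25a3, Slc25a4, Slc25a13, Slc25a28, Slc25a32, Slc25a36, Slc25a39 and Slc25a51. Their values ran from 0.12 (Slc25a36, adjusted p = 0.339) to 0.35 (Slc25a13, adjusted p = 0.0545). Slc25a35 (0.34) and Slc25a42 (-0.48) passed there instead.

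In 4 of 72 groups of values (18 genes in 4 groups), 1 mouse stood apart from the others by Dixon's test, and chance gives about 1 in 20. Slc25a11 was 134 CPM in mouse 6 of the combined treatment, where the next highest was 118 CPM. Slc25a13 was 181 CPM in vehicle mouse 3, where the next highest was 163 CPM. Slc25a15 was 222 CPM in KW6002 mouse 4, against 203 CPM for the next, and Slc25a17 was 231 CPM in cisplatin mouse 2, against 219 CPM. Each was the highest of its group.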

How the results depend on the processing

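Counts of carriers past the threshold stayed within 1.5 times the main count in most alternatives. The exceptions were cisplatin plus KW6002 against vehicle with libraries scaled by their total alone (18 higher and 9 lower, beside 11 and 14) and with the fat marker mean as a covariate, chosen after seeing the data (7 higher), and the interaction with mice numbered in the 500s only (13 higher, beside 20). The cisplatin over vehicle ratio of the summed level moved from 0.952 to 1.11 with libraries scaled by their total alone, and the Slc25a5 log2 fold change turned to 0.0123. That scaling shifted the median of all genes, which by construction moves every fold change. Other causes were not tested.

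Leaving out 1 mouse at a time gave 11 to 13 higher and 24 to 24 lower for cisplatin against vehicle, 21 to 24 and 9 to 11 for the combined treatment against cisplatin, 0 to 0 in both directions for KW6002 alone, 9 to 12 and 13 to 15 for the combined treatment against vehicle, and 17 to 20 and 7 to 8 for the interaction. Ratios of the summed level ran from 0.938 to 0.970 and from 0.983 to 1.02. Of 801 refits of single named genes, 784 kept direction and side of the threshold, 14 lost the call, 2 gained it and 1 reversed.

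Replicate numbers are shared between groups, and 7 of 31 same-numbered pairs correlated above 0.1 (median 0.00846). Correlations between same-numbered vehicle and KW6002 mice ran from -0.153 to 0.405. Such mice also share a label series, so these values cannot settle whether the numbers pair mice. The main fit did not pair them. With the replicate block, 13 carriers were higher and 24 lower with cisplatin, and 22 higher and 10 lower in the combined treatment against cisplatin. Depth limits Slc25a43 most, which had 10 or more counts in 20 libraries.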
